A study of Rattus norvegicus with 6 samples.

Results

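Transcripts of the Polycomb repressive complexes were compared between islets of rats aged 3 and 12 months. The set names 9 genes, *Ezh1*, *Ezh2*, *Suz12*, *Eed* and *Jarid2* of complex PRC2 and *Bmi1*, *Ring1*, *Cbx2* and *Cbx7* of complex PRC1. Each was looked up through the RefSeq mRNA accession of its array probe, and for a gene with several probes the brightest was to be taken. Of the 9 genes, 7 had a probe, 1 each, and all 7 passed the filter on dim signals and were tested, out of 11189 genes tested on the arrays. No probe matched *Suz12* or *Jarid2*, so their signals could not be compared.

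The islets came from male Wistar rats, isolated with collagenase, and the labels name no treatment or genetic change, age being the factor compared. There were 3 arrays of 12-month islets and 3 arrays of 3-month islets, each hybridised with Cy3-labelled total RNA of a sample of its own. Values are given as normalised log2 signal, on which 1 unit is a doubling, and they compare the same probe between arrays, not one gene with another. Each age had a scan of its own, so that age and scan cannot be told apart in any result. Between 59.5% and 64.2% of probes were well above background on the 12-month arrays and between 73.1% and 77.5% on the 3-month arrays, while negative control spots had a median signal of 89.5 to 91 and 29.5 to 31 scanner units. The islet hormones *Ins1*, *Ins2*, *Gcg*, *Sst* and *Ppy* were well above background on all 6 arrays, as were all 9 of the acinar markers with a probe, which belong to the exocrine tissue around islets. In whole islets, fewer cells of a type and less RNA per cell cannot be told apart.

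Polycomb proteins keep genes silent through cell division. PRC2 places the repressive methyl mark H3K27me3 through either of its catalytic subunits EZH1 and EZH2, and PRC1 reads that mark through CBX proteins and ubiquitinates histone H2A through RING1 or RNF2 together with a PCGF partner such as BMI1. In beta cells Polycomb repression is known for holding down *Cdkn2a*, whose product p16 blocks the cell cycle and accumulates as islets age.

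Only 1 of the 7 measured genes, *Bmi1*, passed an adjusted p of 0.05 in limma, and it was higher at 12 months. Among all 11189 genes tested, 7.86% passed in either direction (8.37% of all probes), 4.88% being higher and 2.98% lower at 12 months. A count of 1 in 7 is too small to set these genes apart from the others. *Ring1* had the next smallest p, with a lower signal at 12 months, and *Ezh1*, *Ezh2*, *Eed*, *Cbx2* and *Cbx7* did not pass. The study's own criterion was more than a 2-fold difference with an unadjusted p below 0.05. With that p taken from limma in place of the methods' t-test, which was paired, *Bmi1* was again the 1 gene called, against 19.4% of all genes, 9.8% higher and 9.64% lower. The median difference of the 7 genes was -0.16 log2 units, beside -0.13 over all genes tested, with 3 genes higher and 4 lower at 12 months. One of the 4, *Ezh2*, was well above background on no 12-month array and passed the filter through the 3-month arrays alone. With detection on all 6 arrays required, the median of the 6 genes left was 0.10, beside -0.086 over all genes. Of these 6, 3 were higher and 3 lower. The arrays of the ages did not overlap for 4 of the 7 genes, 3 higher and 1 lower at 12 months, against 39.3% of genes as a whole, 17.1% higher and 22.2% lower.

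**Figure D1:**
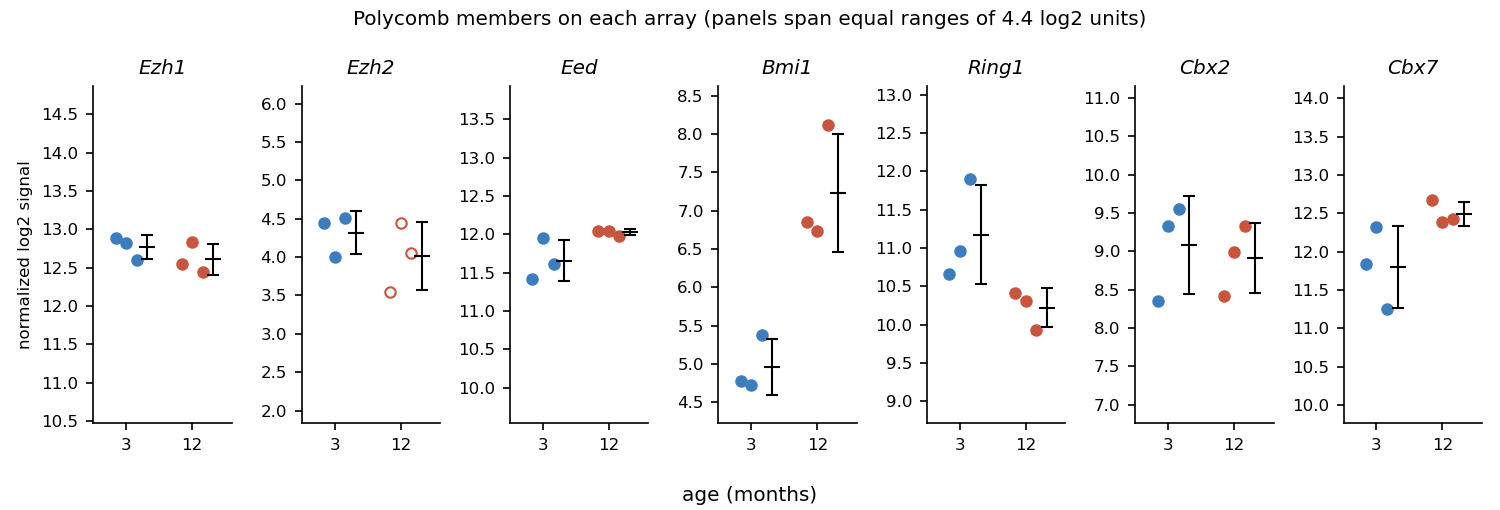
Normalised log2 signal of the 7 measured Polycomb genes on each array, 3-month islets in blue and 12-month islets in red, with the mean and SD of the 3 arrays as black bars beside them. Open points are arrays on which the probe was not well above background, and all panels span the same range of log2 units. *Bmi1* is the gene with the widest gap between ages, from 4.96 to 7.23, and *Ezh2* is open on all 12-month arrays.

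BMI1 is a PCGF subunit that stimulates the ubiquitin ligase activity of PRC1. The *Bmi1* signal was 4.77, 4.73 and 5.38 on the 3-month arrays and 6.85, 6.73 and 8.12 on the 12-month arrays. Every 12-month array lay above every 3-month array, and 12-month replicate 3 was the highest. The mean was 4.96 ± 0.36 at 3 months and rose to 7.23 ± 0.77 at 12 months (SD, n = 3). This difference of 2.27 log2 units (limma SE 0.43, 95% confidence interval 1.25 to 3.30, adjusted p 0.0287) is 4.83-fold. Of all genes tested, 2.50% had a more positive difference. The exact permutation test of these 3 arrays against 3 gave p 0.1, the smallest the design allows.

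Before normalisation the scanner signal of *Bmi1*, already corrected for background, was 14.7, 24.6 and 46.1 units at 3 months and 217, 149 and 275 units at 12 months. It was marked well above background on all 6 arrays, although the 3-month signals were close to the lower end of detection. With normexp, a background correction that adds an offset and so compresses dim differences, the rise of *Bmi1* was 1.12 log2 units and the adjusted p 0.0551. With each array shifted to a common 75th percentile in place of quantile normalisation the rise was 1.87, with an adjusted p of 0.0633. *Bmi1* was higher at 12 months under all 19 alternatives run, and passed the adjusted threshold under 7 of them. When 1 array was left out it passed without 12-month replicate 2, with a limma adjusted p of 0.0291. The adjusted p was 0.0818 without 12-month replicate 1 and 0.0583 without 12-month replicate 3. It was 0.0997 without 3-month replicate 1, 0.0680 without 3-month replicate 2 and 0.0637 without 3-month replicate 3.

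**Figure D2:**
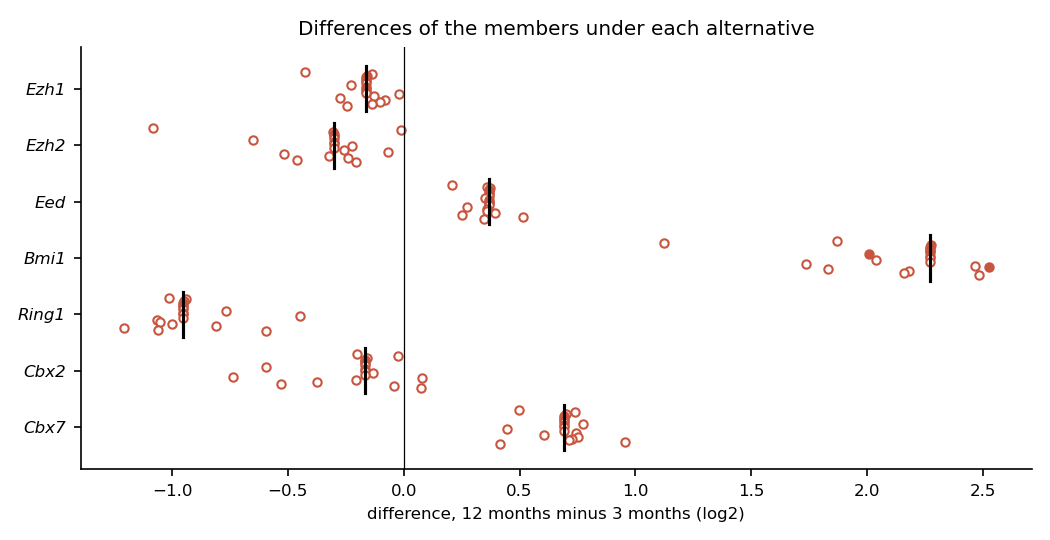
Difference between 12 and 3 months in log2 units for each measured Polycomb gene. The black bar is the value reported, each point is 1 of the alternative analyses, and filled points passed an adjusted p of 0.05. *Bmi1* points run from 1.12 to 2.53, and no other gene has a filled point.

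RING1 is one of the catalytic RING finger subunits of PRC1 and works as a pair with BMI1 or another PCGF protein. The *Ring1* signal was 10.67, 10.96 and 11.90 on the 3-month arrays and 10.42, 10.31 and 9.93 on the 12-month arrays. All 12-month arrays were below all 3-month arrays, by a narrow gap, and 3-month replicate 3 stood highest. The means were 11.17 ± 0.64 and 10.22 ± 0.26 (SD, n = 3). They differed by -0.95 log2 units (limma SE 0.37, 95% confidence interval -1.83 to -0.08). With an unadjusted p of 0.0371 and an adjusted p of 0.132 it did not pass, and 13.7% of all genes had a more negative difference. Across the alternatives the difference ran from -1.21 to -0.45, always lower at 12 months and never past the adjusted threshold. Another RING subunit gene, *Rnf2*, had no matched probe.

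The promoters of these genes share a feature that their choice did not use. Of the 9 genes, 7 had an entry in a RefSeq table of promoters on rat assembly GRCr8, and *Ezh1* and *Cbx2* had none. These 7 include *Suz12* and *Jarid2*, which had no probe. In the 250 bases before the start the 7 held 12 to 33 CG dinucleotides, against a median of 5 over 33469 promoters. As background, CpG-rich promoters are typical of broadly expressed genes, and 31.5% of all promoters held 12 or more, so this is a common property. The upstream sequences of *Bmi1* and *Ring1* are printed because these genes had the largest rise and fall among the members, with CG dinucleotides in capitals. That of *Bmi1* lies on the plus strand at chr17:86243994-86244243 and holds 13, and that of *Ring1* on the plus strand at chr20:4831763-4832012 and holds 31.
Bmi1: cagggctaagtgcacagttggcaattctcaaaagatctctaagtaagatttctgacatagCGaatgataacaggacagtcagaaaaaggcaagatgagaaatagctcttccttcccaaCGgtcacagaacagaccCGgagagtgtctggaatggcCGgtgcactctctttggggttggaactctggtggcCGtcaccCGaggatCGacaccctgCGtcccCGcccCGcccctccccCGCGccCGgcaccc
Ring1: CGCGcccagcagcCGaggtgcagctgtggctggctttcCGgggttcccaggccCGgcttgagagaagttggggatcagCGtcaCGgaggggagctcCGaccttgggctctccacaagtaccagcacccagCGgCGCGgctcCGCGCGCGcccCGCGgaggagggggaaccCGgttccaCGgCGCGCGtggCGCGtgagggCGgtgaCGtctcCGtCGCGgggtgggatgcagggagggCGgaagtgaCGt
E2F factors are known regulators of *Ezh2* and *Eed*. The E2F letters TTTGGCGC, TTTCGCGC, TTTCCCGC and TTTGCCGC were searched on both strands and found upstream of 1 of the 7 genes, *Suz12*, and in 1.73% of all promoters. Absence from this window says nothing of the factor elsewhere.

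CBX2 and CBX7 are chromodomain proteins that anchor alternative forms of PRC1 to methylated histone H3. *Cbx7* read 11.84, 12.32 and 11.25 on the 3-month arrays and 12.67, 12.38 and 12.43 on the 12-month arrays. The older arrays were all higher, 12-month replicate 2 by only a small margin over 3-month replicate 2. The difference was 0.69 log2 units (limma SE 0.32, 95% confidence interval -0.07 to 1.46, adjusted p 0.186). *Cbx2* read 8.35, 9.33 and 9.56 at 3 months and 8.42, 8.99 and 9.33 at 12 months. The ages overlapped, and the difference of -0.17 (limma SE 0.40, 95% confidence interval -1.13 to 0.80, adjusted p 0.793) was smaller than the spread between arrays. The log2 ratio of *Cbx7* to *Cbx2* within an array was 2.72 ± 0.93 at 3 months and 3.58 ± 0.60 at 12 months (SD, n = 3). It differed between ages by 0.86, and by 0.34 without 3-month replicate 3 and 1.24 without 3-month replicate 1. With 3 arrays against 3 the exact permutation test of a ratio cannot give a p below 0.1, and here it gave 0.3, so it leaves the question of unequal change undecided.

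Within PRC2, EZH1 and EZH2 are alternative methyltransferases, EZH2 being known as the form of dividing cells and EZH1 as that of resting cells. *Ezh1* read 12.89, 12.82 and 12.60 on the 3-month arrays and 12.54, 12.84 and 12.45 on the 12-month arrays. These values overlapped, with a difference of -0.16 (limma SE 0.24, 95% confidence interval -0.72 to 0.40, adjusted p 0.650). *Ezh2* was a dim probe, at 4.44, 4.0 and 4.51 on the 3-month arrays, where it was well above background on all 3, and at 3.55, 4.44 and 4.05 on the 12-month arrays, none of which had it well above background. In scanner units this was 12.2, 15.4 and 26.6 at 3 months and 15.4, 27.3 and 13.6 at 12 months. The 12-month values are therefore only bounds, and no fold is given because the 3-month mean did not exceed the detection limit of the 12-month arrays. The probe passed the filter through the 3-month arrays alone, and the adjusted p of *Ezh2* in limma was 0.518. The log2 ratio of *Ezh1* to *Ezh2* was 8.45 ± 0.36 at 3 months and 8.59 ± 0.35 at 12 months (SD, n = 3; exact permutation p 0.7). Since no array of older islets had *Ezh2* well above background, this ratio does not show whether the balance of the enzymes changed.

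EED is the PRC2 subunit that binds the methyl mark and activates the enzyme. *Eed* read 11.42, 11.95 and 11.61 at 3 months and 12.05, 12.05 and 11.98 at 12 months. The older arrays lay close together and just above the highest younger array. The difference of 0.37 (limma SE 0.24, 95% confidence interval -0.20 to 0.94) did not pass, with an adjusted p of 0.313. None of the 3 measured PRC2 genes passed, against 1 of the 4 PRC1 genes. By limma's unadjusted p under 0.05 these counts were 0 and 2, with 30.6% of all genes at that level, and no test of a difference between the complexes was made.

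Several lists of cell type markers also separated the ages, and their part in these results was not tested. The log2 of the summed signal of 7 stellate and mesenchymal markers was 13.6 to 14.6 at 3 months and 15.2 to 16.3 at 12 months, and 1 of the 7 passed the adjusted threshold. *Des*, at 13.07 and 12.73 on the other 3-month arrays, had no value on 3-month replicate 3. The sum of that array lacks it and is too low. For 8 nerve and Schwann cell markers the log2 sum was 12.4 to 13.0 at 3 months and 11.1 to 11.7 at 12 months, with all 7 tested lower and 2 of them past the adjusted threshold. Here *Sox10* had no value on 3-month replicate 1 and is missing from that sum. For 7 beta cell markers the log2 sum was 19.7 to 19.9 at 3 months and 20.0 to 20.2 at 12 months, with 5 higher, 2 lower and 1 past the adjusted threshold. The beta cell sum rests mainly on its brightest probes. Among these *Ins1* differed by 0.10 and *Ins2* by -0.12 (limma adjusted p 0.786 and 0.737). The ages overlapped for both, so the separation of the sum came from other markers of the list. Of the 7 markers, 3 were higher on every 12-month array than on any 3-month array, against 17.1% of all genes. The sums of the 8 other endocrine markers nearly touched, at 19.831 to 20.055 at 3 months and 20.072 to 20.254 at 12 months, with 7 higher, 1 lower and 1 past the adjusted threshold. Those of the 5 endothelial markers did not overlap either, at 15.8 to 16.2 at 3 months and 14.9 to 15.7 at 12 months. The endothelial sum rests mainly on its brightest probe, *Plvap*, and although 4 of the 5 were lower at 12 months, *Pecam1* was 1.23 higher (limma adjusted p 0.124). Markers of dividing cells overlapped at 13.5 to 13.9 and 13.7 to 14.2 with 0 of 9 past the adjusted threshold in limma and 1 at an unadjusted p under 0.05. The acinar, duct and immune lists overlapped between ages.

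Other Polycomb genes were taken from lists of subunits, opposing enzymes and known targets. Of 94 listed genes 49 had a probe and 38 were tested. In limma 1 of the 38, *Kmt2a*, passed the adjusted threshold, against 7.86% of all genes, and 6 passed the threshold of the study with limma's p, 4 higher and 2 lower, against 19.4%. With the p of the methods' t-test this count was 5, and with that of their paired test 4. The plot of differences with confidence intervals shows these genes beside the members.

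**Figure D3:**
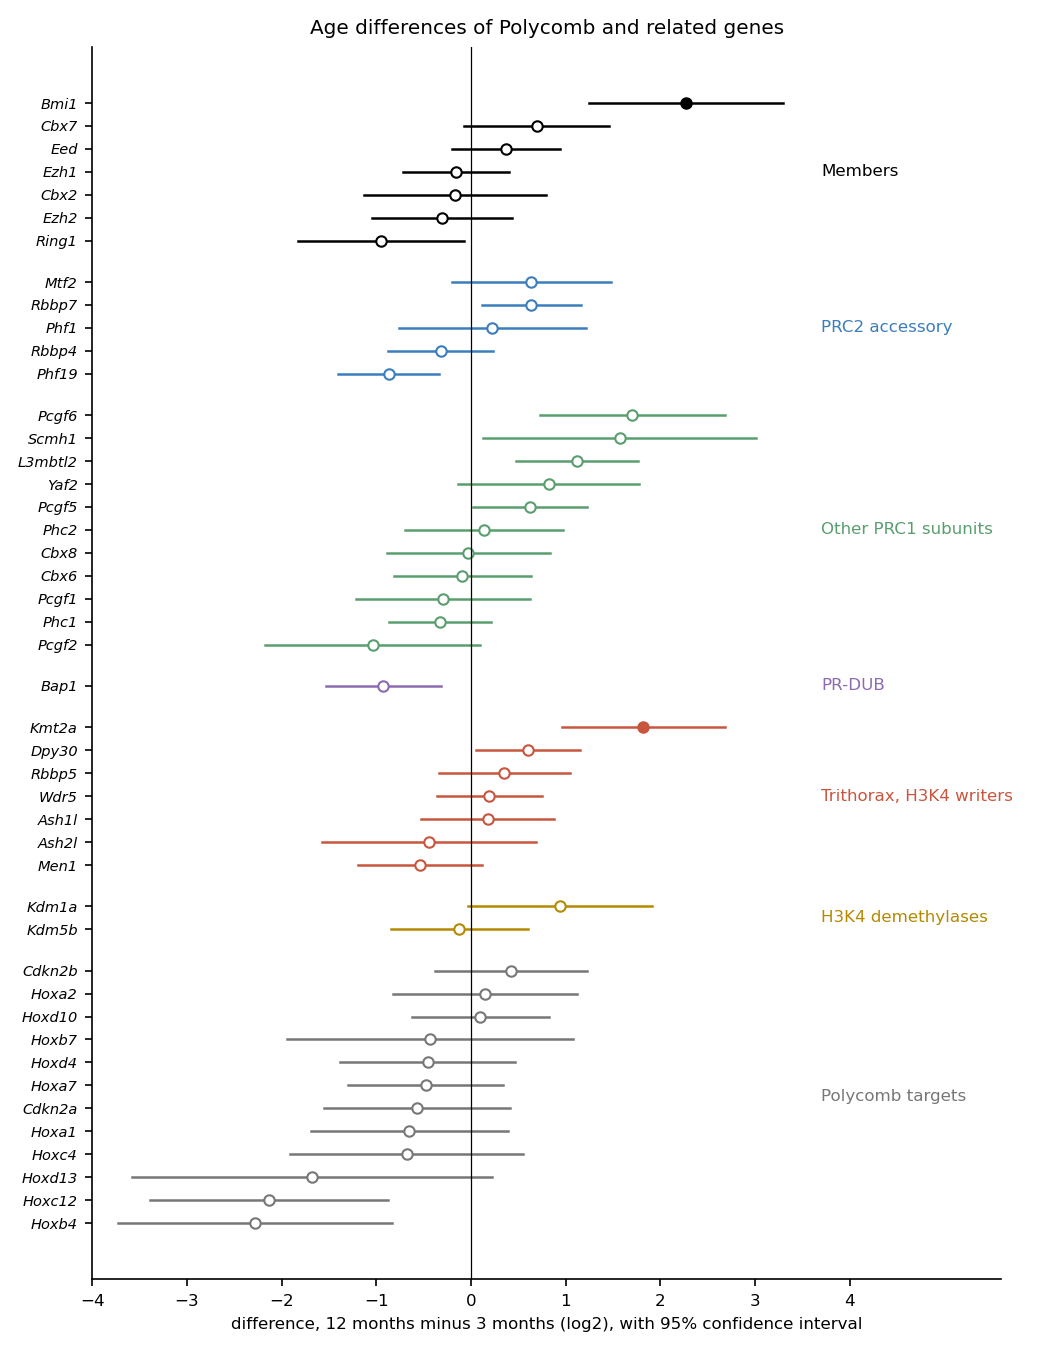
Difference between 12 and 3 months in log2 units with the limma 95% confidence interval for the 7 measured Polycomb genes and 38 related genes, grouped by list. Filled points passed an adjusted p of 0.05 over all probes. *Bmi1* at 2.27 and *Kmt2a* at 1.82 are the filled points, and the *Hox* genes lie mostly to the left of 0; *Ezh2*, *Pcgf2* and *Hoxc12* were not well above background on the 12-month arrays, so that their points are not measured sizes.

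KMT2A is the trithorax methyltransferase that writes the activating H3K4 mark and opposes Polycomb. *Kmt2a* read 9.56, 10.44 and 9.45 on the 3-month arrays and 11.53, 12.07 and 11.31 on the 12-month arrays. The ages were well separated, and the mean rose from 9.82 ± 0.55 to 11.64 ± 0.39 (SD, n = 3), a difference of 1.82 log2 units (limma SE 0.36, adjusted p 0.0325), or 3.53-fold. It passed under 9 of 18 alternatives and was higher in all 18. Of the fits without 1 array it passed without 12-month replicate 2 and without 3-month replicate 2, while the adjusted p was 0.111 without 12-month replicate 1, 0.0761 without 12-month replicate 3, 0.107 without 3-month replicate 1 and 0.0950 without 3-month replicate 3. The other 6 trithorax and H3K4 writer genes tested ran from -0.54 to 0.60 and did not pass. Of the H3K4 demethylase genes, *Kdm1a* differed by 0.94 (limma adjusted p 0.164) and *Kdm5b* by -0.12 (adjusted p 0.799).

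Among 11 tested genes of other PRC1 subunits none passed in limma, 4 had an unadjusted p under 0.05, against 30.6% of all genes, and 3 passed the threshold of the study, all higher, against 9.8%. With 11 genes these counts do not set the list apart. PCGF6 and L3MBTL2 are partners in one variant PRC1 complex that is recruited by DNA-binding factors. *Pcgf6* read 7.36, 8.71 and 7.47 at 3 months and 9.41, 9.88 and 9.36 at 12 months, a difference of 1.70 (limma SE 0.41, adjusted p 0.0515). *Pcgf6* missed the adjusted threshold narrowly and passed it under 7 of 19 alternatives. *L3mbtl2* read 10.74, 11.09 and 10.32 at 3 months and 11.90, 11.87 and 11.74 at 12 months, a difference of 1.12 (limma SE 0.27, adjusted p 0.0517). It passed under 6 of 19 alternatives, and for both genes every 12-month array was above every 3-month array. Also over the threshold of the study was *Scmh1*, named after its values were seen, at 1.57 (limma adjusted p 0.132). *Pcgf2*, the closest paralogue of *Bmi1* and likewise singled out afterwards, was well above background on all 3-month arrays and on no 12-month array. Only a bound from the means can be given, 1.77-fold lower at 12 months. On 12-month replicates 1 and 3 the probe's own signals, 4.49 and 5.27, were above the detection limits of 4.26 and 5.02 though not marked well above background. The bound is therefore not a sure minimum. The arrays of the ages overlapped, however, and the limma 95% confidence interval, -2.17 to 0.10, included no change. *Pcgf2* did not pass (limma adjusted p 0.182). It entered the test through the 3-month arrays alone.

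In the PRC2 accessory list 0 of 5 tested genes passed in limma, against 7.86% of all genes, and 2 had an unadjusted p under 0.05, against 30.6%. PHF19 recruits PRC2 to CpG-rich DNA. *Phf19* read 10.27, 10.08 and 10.15 at 3 months and 9.14, 9.49 and 9.25 at 12 months, a difference of -0.87 (limma SE 0.23, adjusted p 0.0596), with little spread in either age. RBBP7, a histone chaperone shared with other complexes, went the other way, and *Rbbp7* differed by 0.64 (limma SE 0.22, adjusted p 0.104). BAP1 removes the ubiquitin that PRC1 adds. *Bap1* read 12.81, 13.02 and 13.38 at 3 months and 11.96, 12.32 and 12.14 at 12 months, a difference of -0.93 (limma SE 0.26, adjusted p 0.0681). *Phf19* passed under 4 of 19 alternatives and *Bap1* under 4 of 19.

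Targets that Polycomb is known to silence were read last. The cell cycle inhibitor genes *Cdkn2a* and *Cdkn2b*, named after their values were seen, did not pass. *Cdkn2a* read 7.92, 8.09 and 8.54 at 3 months and 7.49, 8.40 and 6.93 at 12 months. These overlapped, and the difference was -0.57 (limma SE 0.41, 95% confidence interval -1.55 to 0.41, adjusted p 0.360). It was -0.23 without 12-month replicate 3 and -0.97 without 12-month replicate 2. *Cdkn2b* differed by 0.42 (95% confidence interval -0.38 to 1.23, limma adjusted p 0.406), and by 0.23 without 3-month replicate 1 and 0.66 without either 12-month or 3-month replicate 3.

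The *Hox* genes, which encode the body axis factors and are classic Polycomb targets, had 16 probes for 39 genes. All were dim or moderate, with means up to 10.16 at 3 months and 7.87 at 12 months. Of the 16 genes, 10 were well above background on all 3-month arrays and 5 on all 12-month arrays. Of the 10 tested, 8 had a lower signal at 12 months, as had 6319 of all 11189 genes tested, and 2 a higher one. Their median difference was -0.56, beside -0.13 over all genes tested. Dim genes leaned lower at 12 months in general. In the dimmest of 5 bins of brightness, which held 4 of the 10 *Hox* genes, the median over genes was -0.27, with 60.2% lower. In the next bin, which held 5 of them, it was -0.13, with 54.5% lower. The filter asked for 3 of 6 arrays, and 5 of the 10 genes met it only with the help of 3-month arrays. The choice of tested genes itself thus leans to a higher 3-month signal, and the count of lower *Hox* genes supports no direction. The count of lower genes ran from 7 to 10 of 10 in the alternatives that kept all 10. None passed the adjusted threshold in limma, against 7.86% of all genes, and 2 had an unadjusted p under 0.05, against 30.6%. Up to 3 passed the adjusted threshold under the alternatives, the 3 with array weights. *Hoxb4* read 11.59, 9.38 and 9.51 at 3 months and 7.60, 7.74 and 8.29 at 12 months, a difference of -2.29 (limma SE 0.61, adjusted p 0.0641). The younger arrays were all higher, and 3-month replicate 1 stood well above the other two. *Hoxc12* was well above background on all 3-month arrays but on none at 12 months, and the bound from the means was 1.35-fold lower there. This is not a sure minimum, since 3-month replicate 3, at 4.45, was below the detection limits of 12-month replicates 2 and 3, 5.13 and 5.02. *Hoxc12* too entered the test through the 3-month arrays alone, and its limma adjusted p of 0.0548 rests on 12-month signals that were not well above background. The higher background of the 12-month arrays moves with these dim probes, and its part was not tested.

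**Figure D4:**
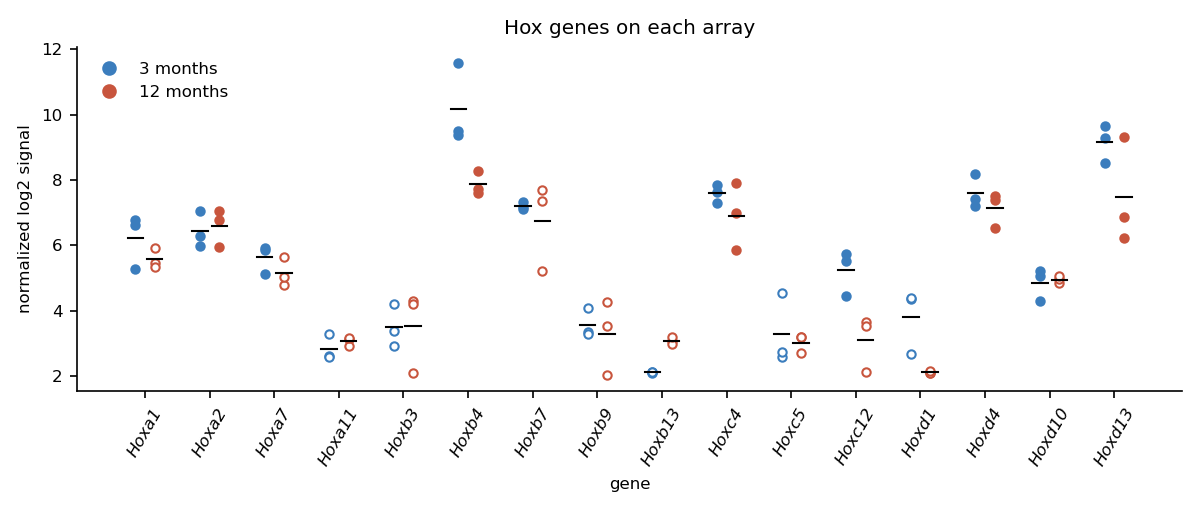
Normalised log2 signal of the 16 *Hox* genes with a probe on each array, 3-month islets in blue and 12-month islets in red, with black bars at the mean of 3 arrays. Filled points mark an age in which the probe was well above background on all 3 arrays. *Hoxb4* falls from 10.16 to 7.87 without reaching the adjusted threshold, and more genes are filled in blue, 10, than in red, 5.

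Over the 6 arrays the patterns most like that of *Bmi1* were those of *Hnrnph3* and *Ank3*, with a Pearson r of 0.997 and 0.993. This likeness is a description over 6 arrays that share the age contrast, and 338 of 11135 genes compared had an r above 0.9 with *Bmi1*.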

How the data were processed

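Islet RNA was measured on 6 one-colour Arraystar/Agilent arrays, 3 of each age. Per the file headers the deposited scanner files hold intensity from Agilent Feature Extraction 11.0.1.1, either background-subtracted or as uncorrected spot and local background medians, with quality marks in other columns; nothing was done between arrays. The authors also deposited quantile-normalised log2 values for 12145 probes, which matched the values computed here with a correlation of at least 0.9996.

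Spots of the same probe were averaged as log2 background-subtracted intensity, without outlier spots, and quantile normalised over 24684 probes. Probes well above background on at least 3 of 6 arrays were kept, and 17941 were tested with limma 3.58.1 in R 4.3.3, two-sided, with no block and Benjamini-Hochberg adjustment over the tested probes. The step was tested on simulated data. Gene names came from RefSeq accessions without versions (14274 of 15321 mRNA probes, assembly GRCr8; the array design used rn4, so no gene coordinates are given). Gene counts use the brightest probe of a gene. Arrays have no read depth, and their number limits the precision. The authors describe RNA from 3 rats of each age; the labels do not tie arrays to animals, so p-values measure the spread between these samples.

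The members and lists were chosen with earlier results of these data known. Named were the members, listed genes past the adjusted threshold, or else the 2 with the smallest p in a list, and the 2 genes most like a called member; others are said to be named afterwards. Where a gene was below background on all arrays of an age, the bound is the mean of the other age against, per array, the detection limit (the lowest signal marked well above background) or the probe's own signal, whichever was higher. Ratios of 2 genes were compared with a two-sided exact permutation test. All 19 alternatives were planned: normalisation, background correction, the authors' table, filters, averaged probes, variance models, t-tests, blocks, 4 arrays whose names share an ending, and each array left out. The values of 1 cell type marker are not reported here.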

Additional observations from a re-analysis of the deposited data

How the results depend on the processing

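Against 1 Polycomb member past the adjusted threshold, 0 passed with the 75th percentile shift, normexp, either of the methods' t-tests, the 4 arrays whose names share an ending, or either replicate block, and 0 to 1 with 1 array left out. At the threshold of the study 2 members passed with the 75th percentile shift and 1 to 2 with 1 array left out. Of the listed genes 1 passed the adjusted threshold; the count was 3 with the 75th percentile shift, 6 under normexp, 3 in the authors' table, 5 with no filter, 6 when detection on all arrays was required, 7 with the intensity trend, 11 with array weights, 0 with the methods' t-tests, the 4 arrays or the blocks, and 0 to 2 with 1 array left out. At the threshold of the study array weights gave 10 against 6, and leaving out 1 array gave 5 to 9. The median difference of the members, -0.16, was -0.011 under normexp, 0.10 when *Ezh2* was dropped by requiring detection on all arrays, and -0.20 to 0.080 with 1 array left out. The unequal difference of *Ezh1* and *Ezh2*, 0.14, was -0.13 with normexp and 0.66 with the 75th percentile shift, and ran from -0.059 to 0.32 without 1 array. That of *Cbx7* and *Cbx2*, 0.86, ran from 0.34 to 1.24 without 1 array and was 0.58 with the numbered pairs and 1.48 with the 4 arrays. *Cdkn2a* was at -0.056 with the numbered pairs and *Cdkn2b* at 0.90. *Cbx2* was at 0.080 without 12-month replicate 1 and 0.073 without 3-month replicate 3, and *Kdm5b* at 0.18 with the numbered pairs and 0.12 without 3-month replicate 3. With 1 array left out *Cbx2* ran from -0.53 to 0.080 and *Kdm5b* from -0.27 to 0.12. For all of these the cause was not tested.

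Arrays of the same number did not deviate together, their deviations correlating at -0.010, -0.31 and -0.26, the third pair by elimination. With the replicate block of 3 pairs *Bmi1* had an adjusted p of 0.0690 and with the numbered pairs 0.230. The 3-month signals of *Bmi1* were dim and the 12-month background was higher, so the size of its rise is uncertain in either direction. The part of the background in it was not tested. The 75th percentile shift moved the median difference of all genes from -0.13 to -0.34, and differences under it are read against that value.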
